A study of Mus musculus with 6 samples.

Results

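Trp53, the mouse gene of the tumour suppressor p53, and 8 genes that p53 is known to switch on, Mdm2, Cdkn1a, Ccng1, Sesn1, Zmat3, Phlda3, Eda2r and Gdf15, were chosen by their gene names and read across mouse osteoblasts under 3 conditions. All 9 were found among the 21686 genes of the deposited table. The cells were MC3T3-E1 Subclone 14, a single clone of a mouse osteoblast precursor line, so the values describe 1 genetic background. The control group received 100 µL of PBS, the dexamethasone group 10 µM of this synthetic glucocorticoid, and the dexamethasone + EPC-EVs group 10 µM dexamethasone with 100 µg of EPC-EVs, which are extracellular vesicles of endothelial progenitor cells from mouse bone marrow. All groups were kept for 72 hours, and RNA was sequenced in 2 libraries per group, which the study calls biological replicates.

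p53 is a transcription factor that is held low in unstressed cells because the ubiquitin ligase MDM2 binds it and sends it to the proteasome. DNA damage and other stresses block this step, so that p53 builds up as a protein, mostly without a change in its own mRNA, and binds its target genes. Mdm2 is itself a target, which closes a negative feedback loop. The other targets halt the cell cycle (Cdkn1a), lead to apoptosis, repair DNA, or limit growth signals (Sesn1 and Phlda3). In osteoblasts, p53 is known as a brake on differentiation.

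p53 binds DNA as a tetramer, and each pair of subunits reads a half-site of 10 bases. The half-site consensus was searched on both strands of the RefSeq promoter windows of GRCm38.p6, which run from 250 bases before a gene's start to 50 bases after it, and which cover 8 of the 9 genes (Zmat3 has no entry). It was found in 2745 of 32851 windows, or 8.36%, so a single match is common. Matches stood in windows of Trp53, Mdm2, Ccng1, Cdkn1a and Sesn1, and none stood in those of Phlda3, Eda2r and Gdf15. Sites outside these windows, such as in introns, were not searched, so a window without a match does not mean a gene without a site. The stretches of the 4 target genes are given here because they let the letters be read beside the direction of each gene, with the half-sites in capitals and 25 bases on each side.
Mdm2: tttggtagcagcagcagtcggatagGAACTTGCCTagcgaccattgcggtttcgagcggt
Cdkn1a: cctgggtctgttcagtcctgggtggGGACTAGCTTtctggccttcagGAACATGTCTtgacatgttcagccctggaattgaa
Ccng1: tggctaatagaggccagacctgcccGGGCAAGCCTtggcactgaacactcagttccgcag
Sesn1: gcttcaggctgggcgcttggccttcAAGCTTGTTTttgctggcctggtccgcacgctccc
The stretches lie at chr10:117710910-117710969 on the minus strand for Mdm2, at chr17:29090881-29090962 on the plus strand for Cdkn1a, at chr11:40755437-40755496 on the minus strand for Ccng1 and at chr10:41887241-41887300 on the plus strand for Sesn1. The window of the first Cdkn1a start held 2 half-sites, with their first bases 73 and 51 bases before that start. Only exact matches were marked. The 10 bases right after the second half-site depart from the consensus at their first base alone, and so stay in lower case. A pair of half-sites with 0 to 13 bases between them stood in 24 windows, or 0.0731%. The second Cdkn1a start lies 2790 bases downstream, and its window held no match. The Sesn1 match belongs to the second of its starts. A match of letters is not evidence of binding, which was not measured.

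The total counts were 5146760 to 6126888 in control, 6575094 to 6583735 in dexamethasone and 12864009 to 13182014 in dexamethasone + EPC-EVs, so the last group was sequenced to a greater depth. At these depths 3 counts, the upper limit that a count of 0 allows, equal 0.235 to 0.597 CPM (counts per 1000000, with library totals scaled by TMM, a normalization for composition). Mitochondrially encoded genes took 5.55% to 8.62% of the counts in control and dexamethasone and 0.465% to 0.727% in dexamethasone + EPC-EVs. The gene with the most counts was mt-Co1 in control and dexamethasone (2.8% to 3.72%) and Gm26917, a predicted gene, in both dexamethasone + EPC-EVs libraries (5.88% and 6.69%). With mitochondrially encoded genes left out, edgeR called 2 of the 9 genes higher and 5 lower in dexamethasone + EPC-EVs than in each other group. Over all genes, 2836 were then higher and 2571 lower against dexamethasone, and 2585 and 2305 against control. The part of Gm26917, and of whatever lowered the mitochondrial share, in the differences of the p53 targets was not tested. Replicates differed beyond counting noise (chi-square divided by its degrees of freedom 16.6, 7.17 and 20.1). The second control library held the highest or the lowest CPM of the 6 libraries for 8 of the 9 genes. Of the osteoblast markers, Col1a1, Col1a2, Spp1 and Runx2 were well expressed, while Alpl, Bglap, Ibsp and Sp7 had at most 260 counts in any library. Endothelial markers other than Cd34 had at most 28 counts, and Cdh5, Tek and Prom1 had none in the dexamethasone + EPC-EVs libraries.

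Trp53 (ENSMUSG00000059552.13, chr11:69580359-69591873, GRCm38) was not called in any of the 3 comparisons. Its level was 118.6 and 75.04 CPM in control, 90.55 and 100.3 CPM in dexamethasone, and 104.2 and 102.8 CPM in dexamethasone + EPC-EVs. The 2 control libraries spanned all the others, so the spread within control was larger than any difference of group means. Between dexamethasone and control the log2 fold change was -0.03, with a 95% interval from -0.53 to 0.47 and an adjusted p of 0.982 (edgeR's quasi-likelihood test, Benjamini-Hochberg over all genes tested). Between dexamethasone + EPC-EVs and dexamethasone it was 0.07, with an interval from -0.25 to 0.39 (edgeR adjusted p = 0.73). Against control it was 0.05, from -0.51 to 0.61 (edgeR adjusted p = 0.899). These intervals leave room for a change of moderate size, and the sign turned under several alternatives, most of all to -0.32 against dexamethasone and -0.57 against control when the values were corrected for GC content and transcript length by removing a fitted trend (edgeR adjusted p = 0.121 and 0.0575). A processed pseudogene, Trp53-ps at chr17:54419680-54420841, is a near copy that can share reads with Trp53, and its counts were not analysed here.

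**Figure D1:**
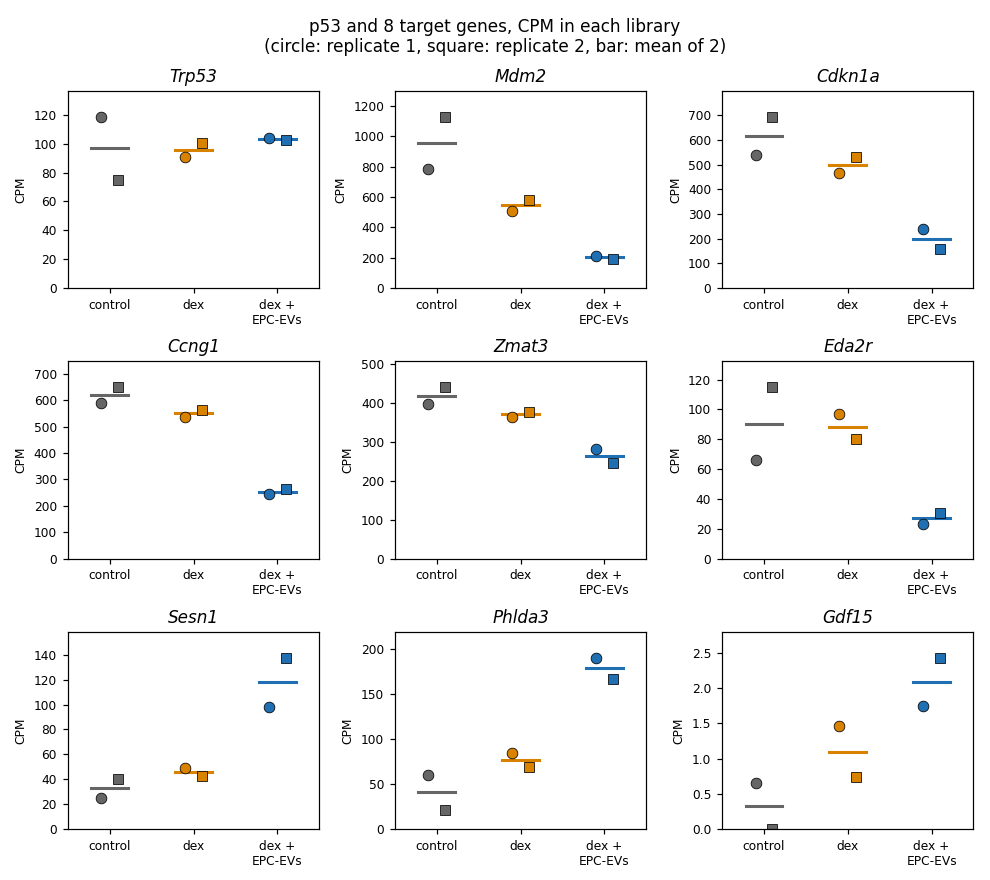
CPM (y axis, linear, from 0) of Trp53 and 8 target genes in each of the 6 libraries, by group (x axis). Circles are replicate 1, squares replicate 2, and bars the mean of 2. Trp53 stays between 75.04 and 118.6 CPM, Mdm2, Cdkn1a, Ccng1, Zmat3 and Eda2r are lowest in both dexamethasone + EPC-EVs libraries, and Sesn1 and Phlda3 are highest there.

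The first comparison asked what dexamethasone alone did to these genes. None of the 8 genes tested was called by edgeR's quasi-likelihood test at an adjusted p under 0.05, and 2 (Mdm2 and Phlda3) had an unadjusted p under 0.05. Gdf15 had too few counts to be tested. Over all 12879 genes tested, 0.0544% were called and 10.9% had an unadjusted p under 0.05. The 2 libraries of each group did not overlap for 6 of the 8 genes, 4 lower (Mdm2, Cdkn1a, Ccng1 and Zmat3) and 2 higher (Sesn1 and Phlda3) in dexamethasone, beside 21.2% of all genes lower, 22.8% higher and 44.1% in either direction. In bulk RNA, a smaller share of cells with a transcript and less of it in each cell cannot be told apart.

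Mdm2 (ENSMUSG00000020184.15, chr10:117688875-117710758), which encodes the ligase that removes p53, had 784.1 and 1128 CPM in control and 509.4 and 579.3 CPM in dexamethasone. Both dexamethasone libraries lay below both control libraries. The fitted level was 1.77-fold lower, with a log2 fold change of -0.82 (SE 0.18, interval -1.22 to -0.42). It ranked 48 of the genes tested by p, and its edgeR adjusted p was 0.256. The call differed between treatments of the counts, since DESeq2 gave an adjusted p of 0.00107 and edgeR without a filter on low counts 0.000133. With a control arm of 1 library, which borrows its spread from the dexamethasone pair, edgeR gave -1.05 (adjusted p = 6.32e-10) without control replicate 1 and -0.52 (adjusted p = 0.0123) without control replicate 2.

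Phlda3, which encodes a protein that blocks the kinase AKT at the membrane, had 60.27 and 21.1 CPM in control and 84 and 68.6 CPM in dexamethasone, a log2 fold change of 0.89 (SE 0.38, edgeR adjusted p = 0.428). The 2 control libraries lay far apart, and without control replicate 1 the value was 1.86 (edgeR adjusted p = 3.21e-07), while without control replicate 2 it was 0.35 (edgeR adjusted p = 0.553) and with the trend on GC content and length removed it was 0.42 (edgeR adjusted p = 0.66). Cdkn1a was not called at -0.31 (SE 0.16, edgeR adjusted p = 0.511), and without control replicate 1 it was -0.47 (edgeR adjusted p = 0.00336), without control replicate 2 -0.11 (edgeR adjusted p = 0.802), and with that trend removed -0.68 (edgeR adjusted p = 0.215). Of the remaining 5, Ccng1, Zmat3, Sesn1, Eda2r and Trp53, the log2 fold changes ran from -0.19 for Zmat3 to 0.47 for Sesn1, with edgeR adjusted p between 0.566 and 0.982. These sizes also moved with the control libraries, and Sesn1 was at 0.17 without control replicate 1 and at 0.86 without control replicate 2, where Zmat3 was at -0.096 and Ccng1 at -0.0939.

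The second comparison asked what adding EPC-EVs did to cells given dexamethasone. Of the 9 genes, 5 fell (Mdm2, Cdkn1a, Ccng1, Eda2r and Zmat3), 2 rose (Sesn1 and Phlda3), and 2 (Trp53 and Gdf15) were not called. The background was high, since 39.8% of the 13556 genes tested were called, 18.9% lower and 20.9% higher in dexamethasone + EPC-EVs. The libraries of the 2 groups did not overlap for any of the 9 genes, as for 72.6% of all genes (34% lower and 38.5% higher). The median log2 fold change of the 9 genes was -0.54, and that of all genes tested was 0.01. Past the threshold of the study's methods, a log2 fold change beyond 1.5 at an unadjusted p under 0.05, was Eda2r alone, beside 14.2% of all genes.

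Mdm2 was at 212.1 and 193.6 CPM in dexamethasone + EPC-EVs, below every library of the other groups. It fell 2.77-fold from dexamethasone, a log2 fold change of -1.47 (SE 0.13, edgeR adjusted p = 8.84e-06). The fall was called under all 14 other treatments of the counts, with values from -1.54 to -1.36. Ccng1 (ENSMUSG00000020326.7, chr11:40748552-40755311), which encodes cyclin G1, a partner of a phosphatase that acts on MDM2, stood at 591.3 and 649.9 CPM in control, 537.6 and 565.2 CPM in dexamethasone and 243.7 and 262.1 CPM in dexamethasone + EPC-EVs. Its libraries separated the vesicle group from the others, and it fell 2.25-fold from dexamethasone (log2 fold change -1.17, SE 0.12, edgeR adjusted p = 2.51e-05). With the trend on GC content and length removed, the fall of Ccng1 was smaller, -0.57 (edgeR adjusted p = 0.00309), and its GC content of 40.77% is among the lower ones, with 11.2% of 13444 expressed genes below it.

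Cdkn1a (ENSMUSG00000023067.13, chr17:29090976-29100727) encodes p21, the inhibitor of cyclin-dependent kinases through which p53 stops the cell cycle. Its level was 541.3 and 694.7 CPM in control, 468.3 and 532.9 CPM in dexamethasone, and 238.4 and 158.1 CPM in dexamethasone + EPC-EVs. The 2 vesicle libraries differed more from each other than those of dexamethasone, yet both lay under all the rest. The fall from dexamethasone was 2.61-fold (log2 fold change -1.38, SE 0.18, edgeR adjusted p = 0.000115), and it was called in all 14 alternatives. An annotated gene on the opposite strand, AC167363.2, overlaps Cdkn1a, and the sources used here do not give the strand option of HTSeq, so reads of the 2 cannot be told apart.

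Eda2r (ENSMUSG00000034457.10, chrX:97333840-97377216), a receptor of the tumour necrosis factor family that binds ectodysplasin A2, had 65.97 and 114.9 CPM in control, 96.67 and 80.38 CPM in dexamethasone, and 23.44 and 30.61 CPM in dexamethasone + EPC-EVs. Control and dexamethasone libraries overlapped, and the vesicle libraries were 3.38-fold lower than dexamethasone (log2 fold change -1.76, SE 0.20, edgeR adjusted p = 5.48e-05). With the GC and length trend removed the fall was -1.16 and was still called. Zmat3 (ENSMUSG00000027663.12, chr3:32334792-32366014), an RNA-binding zinc finger protein, went from 363.5 and 378.5 CPM to 281.2 and 246.6 CPM. This was 1.45-fold (log2 fold change -0.54, SE 0.13, edgeR adjusted p = 0.00545). The call of Zmat3 was lost without dexamethasone replicate 1 (-0.55, adjusted p = 0.06) and without dexamethasone replicate 2 (-0.51, adjusted p = 0.0812), where the size hardly moved.

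Sesn1 (ENSMUSG00000038332.13, chr10:41809935-41908424) encodes sestrin 1, which restrains the growth kinase mTORC1. It went the other way, from 25.25 and 40.41 CPM in control and 48.77 and 42.25 CPM in dexamethasone to 98.05 and 137.7 CPM in dexamethasone + EPC-EVs. Both vesicle libraries were above all others. Sesn1 rose 2.51-fold from dexamethasone (log2 fold change 1.33, SE 0.19, edgeR adjusted p = 0.000281), a call made in all 14 alternatives. The gene 9930024M15Rik overlaps it on the same strand, with 21 to 56 counts in control and dexamethasone libraries and 180 and 285 in dexamethasone + EPC-EVs, so some reads of these 2 genes may be shared.

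Phlda3 (ENSMUSG00000041801.5, chr1:135766119-135769136) rose to 190.5 and 166.9 CPM in dexamethasone + EPC-EVs. It was 2.27-fold above dexamethasone (log2 fold change 1.18, SE 0.16, edgeR adjusted p = 0.000147), and its libraries did not overlap between groups. The GC content of its longest transcript, 62.58%, is above that of 98.9% of expressed genes, and its length above that of only 12.6%. With the trend on GC content and length removed the difference was 0.07 (edgeR adjusted p = 0.743), and the parts of GC content and length in this were not separated. Gdf15 (ENSMUSG00000038508.7, chr8:70629393-70632456), a secreted stress cytokine, is nearly as GC rich at 61.29%. It had 4 and 0 counts in control, 10 and 5 in dexamethasone, and 22 and 31 in dexamethasone + EPC-EVs, where the libraries were deeper. Its log2 fold change between the last 2 groups was 0.88 with an interval from -1.10 to 2.85 (edgeR adjusted p = 0.472), so no difference was detectable with these counts and this spread between replicates.

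**Figure D2:**
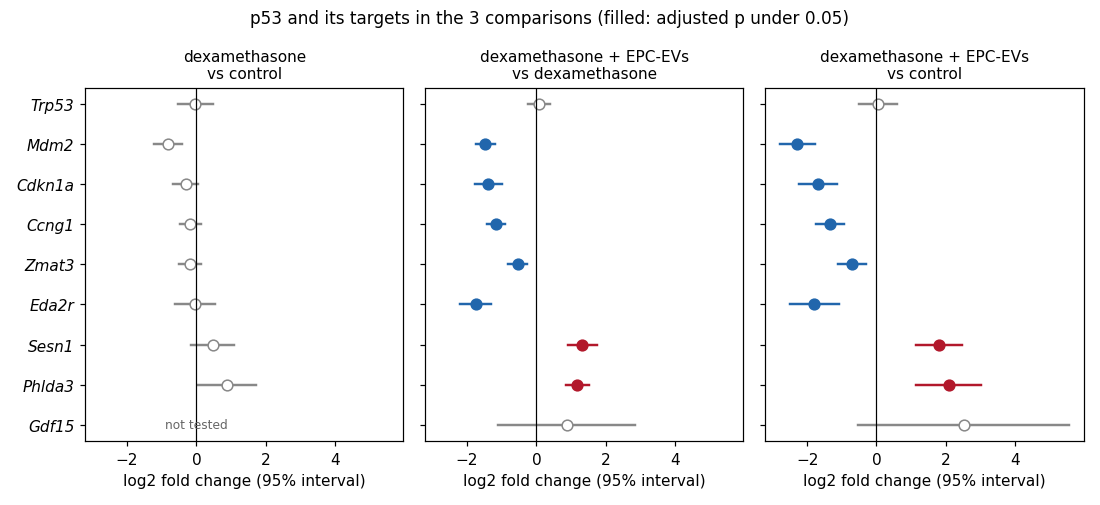
Log2 fold change (x axis) of each gene (y axis) in the 3 comparisons, with 95% intervals of edgeR's quasi-likelihood fit. Filled points have an adjusted p under 0.05, blue lower and red higher in the first-named group. No gene is filled for dexamethasone against control, and 5 blue and 2 red points appear in each of the other 2 panels, which share the dexamethasone + EPC-EVs libraries.

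The third comparison set dexamethasone + EPC-EVs against control, and it shares libraries with the other comparisons, so it is no independent support for them. In it 36.4% of 13511 genes were called, 17.2% lower and 19.1% higher, and 73% did not overlap (33.9% lower and 39.1% higher), among them 8 of the 9 genes. The threshold of the study's methods was passed by 5 of the 9 genes and by 20.7% of all genes. The 7 genes called against dexamethasone were called the same way here. Mdm2 was 4.88-fold lower (log2 fold change -2.29, SE 0.22, edgeR adjusted p = 0.000363), Eda2r 3.46-fold lower, Cdkn1a 3.23-fold lower, Ccng1 2.54-fold lower and Zmat3 1.65-fold lower. Sesn1 was 3.48-fold higher and Phlda3 4.23-fold higher. The log2 value of Phlda3, 2.08, was 3.07 without control replicate 1 and 1.54 without control replicate 2, both called. Of these 7, the call of Zmat3 (-0.72) was lost without dexamethasone + EPC-EVs replicate 2 (-0.61, edgeR adjusted p = 0.146), and that of Phlda3 was lost with the GC and length trend removed (0.49, edgeR adjusted p = 0.201). That correction also gave -0.55 for Ccng1 (-1.34 without it), -0.97 for Eda2r (-1.79 without it) and -2.55 for Cdkn1a (-1.69 without it), all still called. Gdf15 was not called (edgeR adjusted p = 0.174), and with the control library of 4 counts left out it was called against a count of 0 (edgeR adjusted p = 0.0424).

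**Figure D3:**
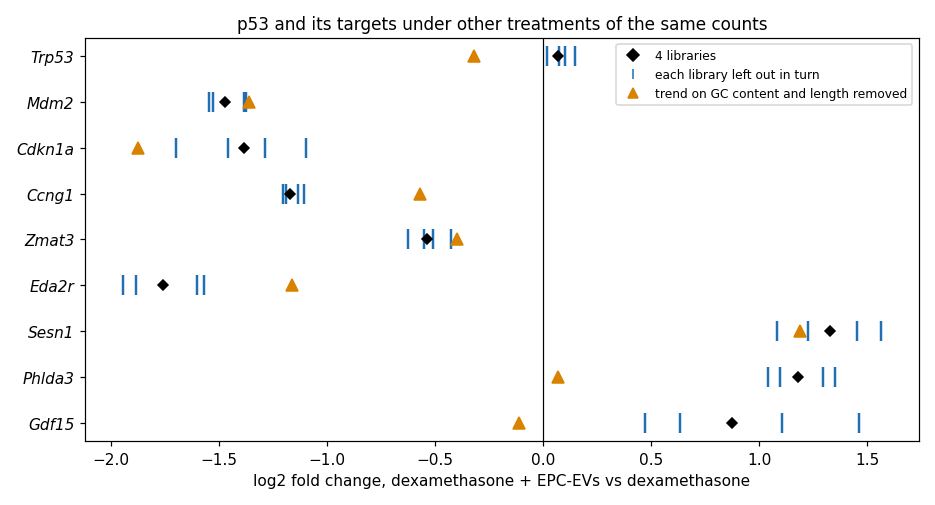
Log2 fold change between dexamethasone + EPC-EVs and dexamethasone (x axis) for each gene (y axis). Black diamonds use the 4 libraries, blue ticks leave out each library in turn, and orange triangles have the trend on GC content and length removed. The triangle of Phlda3 sits at 0.07 against 1.18 for its diamond, and those of Mdm2, Cdkn1a, Eda2r and Ccng1 stay well below 0.

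The transcript table, which covers chromosome 1, held Phlda3 alone among the 9 genes. Its 2-exon transcript of 1435 bases, ENSMUST00000038945.5, had FPKM (fragments scaled to transcript length and library size) of 28.27 and 9.027 in control, 44.19 and 35.55 in dexamethasone, and 108.9 and 93.93 in dexamethasone + EPC-EVs. The other annotated transcript, ENSMUST00000136445.1, stayed between 0.442 and 1.157 FPKM. The order of the groups is that of the gene counts. On the scale of log2(FPKM + 1), the main transcript differed by 1.25 between dexamethasone and control (SE 0.57, limma adjusted p = 0.793), where 0.127% of 5504 transcripts were called, and by 2.02 without control replicate 1 and 0.47 without control replicate 2, neither of them called. It differed by 1.33 between dexamethasone + EPC-EVs and dexamethasone (SE 0.29) and was not called (limma adjusted p = 0.0955), where 0.0226% of 4416 transcripts were called. Against control it differed by 2.58 (SE 0.60, limma adjusted p = 0.0927), where 0.173% of 4614 were called, and it was called without control replicate 1 (3.35, limma adjusted p = 0.0472). The gene counts and the transcript FPKM come from the same reads.

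The order of levels among the 9 genes, compared per length as FPKM with no correction for GC content, also differed between the groups. In control, Cdkn1a led with a mean of 274.5 FPKM, followed by Mdm2 at 185.6 and Ccng1 at 174.7, which did not differ beyond their spread. Zmat3 (36.29), Phlda3 (25.97), Trp53 (23.74) and Eda2r (15.13 FPKM) followed with each overlapping the next, then Sesn1 at 8.129 FPKM and Gdf15 at 0.1763 FPKM. In dexamethasone the order was Cdkn1a (233.7), Ccng1 (163), Mdm2 (111.1), Phlda3 (50.84), Zmat3 (33.68), Trp53 (24.48), Eda2r (15.61), Sesn1 (11.87) and Gdf15 (0.6154 FPKM), and no neighbours overlapped. In dexamethasone + EPC-EVs, Phlda3 stood first at 111.7 FPKM, and Cdkn1a at 86.99 FPKM overlapped with both Phlda3 and Ccng1 (70.12 FPKM), while Mdm2 at 38.88 FPKM lay below them. Sesn1 (28.79), Trp53 (24.93), Zmat3 (22.49), Eda2r (4.464) and Gdf15 (1.097 FPKM) came last, of which Sesn1 and Trp53 overlapped.

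Ratios of 2 genes within a library do not depend on the library total or on TMM, but they are not corrected for GC content or length, and the change of Phlda3 was far smaller once that trend was removed. The ratio of Mdm2 to Trp53 FPKM was 5.26 and 12 in control, 4.48 and 4.6 in dexamethasone, and 1.62 and 1.5 in dexamethasone + EPC-EVs. The ratio of Phlda3 to Trp53 ran the other way, at 1.32 and 0.73, then 2.41 and 1.78, then 4.74 and 4.21. Between the 2 targets themselves, the ratio of Mdm2 to Phlda3 was 3.99 and 16.4 in control, 1.86 and 2.59 in dexamethasone, and 0.342 and 0.356 in dexamethasone + EPC-EVs. The 2 vesicle libraries were the only ones in which Phlda3 exceeded Mdm2. A ratio shows unequal change between 2 genes, not which of them changed.

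**Figure D4:**
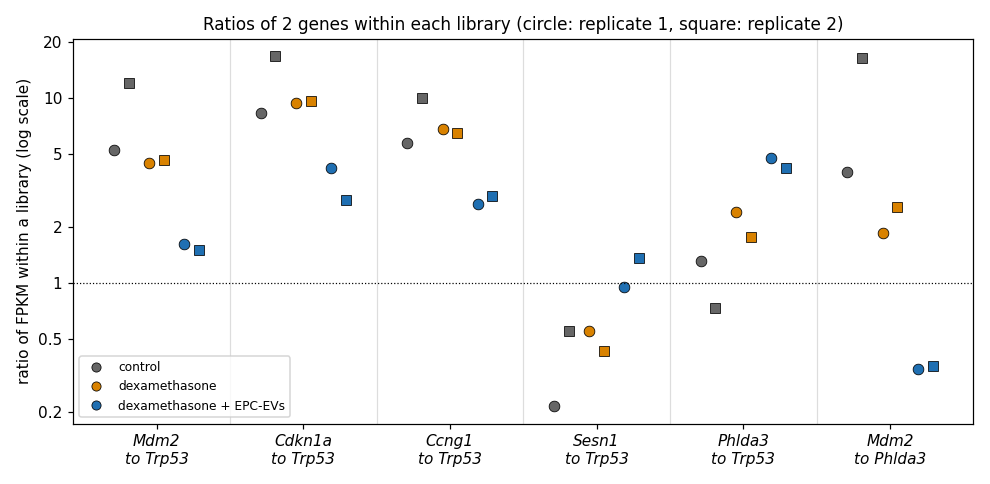
Ratio of the FPKM of 2 genes within each library (y axis, log scale), for 6 pairs (x axis). Grey is control, orange dexamethasone and blue dexamethasone + EPC-EVs, circles replicate 1 and squares replicate 2. Mdm2, Cdkn1a and Ccng1 relative to Trp53 are lowest in the vesicle libraries, Sesn1 and Phlda3 relative to Trp53 are highest there, and Mdm2 to Phlda3 drops to 0.342 and 0.356.

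Of 45 further genes known as p53 targets, 43 were in the table and tested, and Pmaip1 and Perp were not analysed here. Between dexamethasone and control, edgeR's quasi-likelihood test called none of the 43, beside 0.0544% of all genes, and 6 had an unadjusted p under 0.05, beside 10.9% of all genes. DESeq2 called 1, and over all genes 44 higher and 87 lower. The edgeR test called 13 of the 43 without control replicate 1, where over 13708 genes it called 1268 higher and 932 lower, and 1 without control replicate 2, where it called 49 higher and 64 lower. Between dexamethasone + EPC-EVs and dexamethasone, 9 were higher and 11 lower, which is 46.5% called beside 39.8% of all genes. The median log2 fold change was -0.33, beside 0.01 for all genes. Against control, 9 were higher and 7 lower, 37.2% beside 36.4%, with a median of 0.03. That count was 26 without control replicate 1, where over 14556 genes 3581 were higher and 2650 lower, and 9 without dexamethasone + EPC-EVs replicate 1, where over 13732 genes 1854 were higher and 1589 lower. The split between directions moved with the GC and length trend removed, where 4 were higher and 17 lower against dexamethasone and 2 were higher and 15 lower against control. Over all genes so corrected, 2034 were higher and 2207 lower against dexamethasone, and 1533 higher and 1989 lower against control.

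Among the 10 apoptosis genes tested, 5 fell and 2 rose from dexamethasone to dexamethasone + EPC-EVs, beside 18.9% of all genes lower and 20.9% higher. Fas, a death receptor, went from 49.5 and 71.4 CPM to 8.87 and 14.05 CPM, a log2 fold change of -2.44 (SE 0.28, edgeR adjusted p = 5.33e-05). Trp53inp1, which promotes p53 phosphorylation and autophagy, went from 186.2 and 200.2 CPM to 51.56 and 47.65 CPM, or -2.01 (SE 0.15, edgeR adjusted p = 2.82e-06). These 2 falls were called under all 14 alternatives, with values from -2.79 to -1.98 for Fas and from -2.05 to -1.20 for Trp53inp1. Ei24 (-0.62), Apaf1 (-0.48) and Tnfrsf10b (-0.46) fell less, and each of these calls was lost without dexamethasone replicate 2 (edgeR adjusted p = 0.177, 0.221 and 0.14), where Ei24 was at -0.40. Those of Apaf1 and Tnfrsf10b were also lost without dexamethasone replicate 1 (-0.54 and -0.44). That of Apaf1 was lost without dexamethasone + EPC-EVs replicate 1 (-0.38) and that of Tnfrsf10b without dexamethasone + EPC-EVs replicate 2 (-0.37). With the GC and length trend removed, Apaf1 was at -0.29 and not called (edgeR adjusted p = 0.222). DESeq2 called neither Apaf1 nor Tnfrsf10b (adjusted p = 0.0746 and 0.0637). In 1 fit of all 6 libraries, Ei24, Apaf1 and Tnfrsf10b were not called (edgeR adjusted p = 0.0644, 0.125 and 0.0853).

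The pro-apoptotic BCL2 family genes Bbc3, which encodes PUMA, and Bax rose. Bbc3 had 3.931 and 4.564 CPM in dexamethasone and 23.44 and 12.25 CPM with EPC-EVs added, which is 2.02 on the log2 scale (edgeR adjusted p = 0.0028). Bax had 20.82 and 15.31 CPM and then 45.86 and 40.74 CPM, a log2 fold change of 1.21 (edgeR adjusted p = 0.00194). Neither rise was called with the GC and length trend removed, where Bbc3 was at 0.65 (edgeR adjusted p = 0.264) and Bax at 0.05 (edgeR adjusted p = 0.883).

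Of the 6 cell-cycle arrest genes, Ptprv (1.77), Plk3 (1.27) and Btg2 (0.99) rose and Gadd45a (-1.17) fell from dexamethasone. The shares called were 66.7% of these, 40% of the DNA repair genes, 30% of the metabolic targets and 33.3% of the other targets, beside 39.8% of all genes. Ptprv, a phosphatase known from osteoblasts, kept its call in all 14 alternatives. Plk3 lost it with the GC and length trend removed (0.45, edgeR adjusted p = 0.275), and without dexamethasone replicate 2 Btg2 and Gadd45a lost it narrowly (edgeR adjusted p = 0.0578 and 0.0572). Of the 5 DNA repair genes, Polk, a translesion polymerase, fell by 1.79 on the log2 scale and Ercc5, a nucleotide excision repair nuclease, by 0.75, both in all 14 alternatives, and the other 3 were not called. Among the 10 metabolic targets, Pank1, which starts coenzyme A synthesis, rose (1.23), Ephx1, an epoxide hydrolase, fell (-0.64), and Ddit4, an inhibitor of mTORC1, rose (1.06) but lost its call with the GC and length trend removed (0.31, edgeR adjusted p = 0.23). Of the 12 other targets, Ckap2 (-1.60) and Zfp365 (-0.83) fell in all 14 alternatives. Epha2 (0.85) and Slc19a2 (0.63) rose. With that trend removed neither was called, with Epha2 at 0.19 (edgeR adjusted p = 0.336) and Slc19a2 hardly moved at 0.57 (edgeR adjusted p = 0.0719). The call of Slc19a2 was lost under 8 of the 14 alternatives, with values over all 14 from 0.39 without dexamethasone replicate 1 (edgeR adjusted p = 0.251) to 0.94 without dexamethasone replicate 2.

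Against control, the calls made in all 14 alternatives were those of Fas (-2.57), Polk (-2.38), Trp53inp1 (-2.21), Ckap2 (-2.10) and Plk2 (-1.04), which fell, and of Pank1 (1.47), which rose. Sizes still moved, and over the 14 alternatives Trp53inp1 ran from -2.46 to -1.14 and Polk from -2.709 to -1.655. Each of the other 10 calls was lost under at least 1 alternative.

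**Figure D5:**
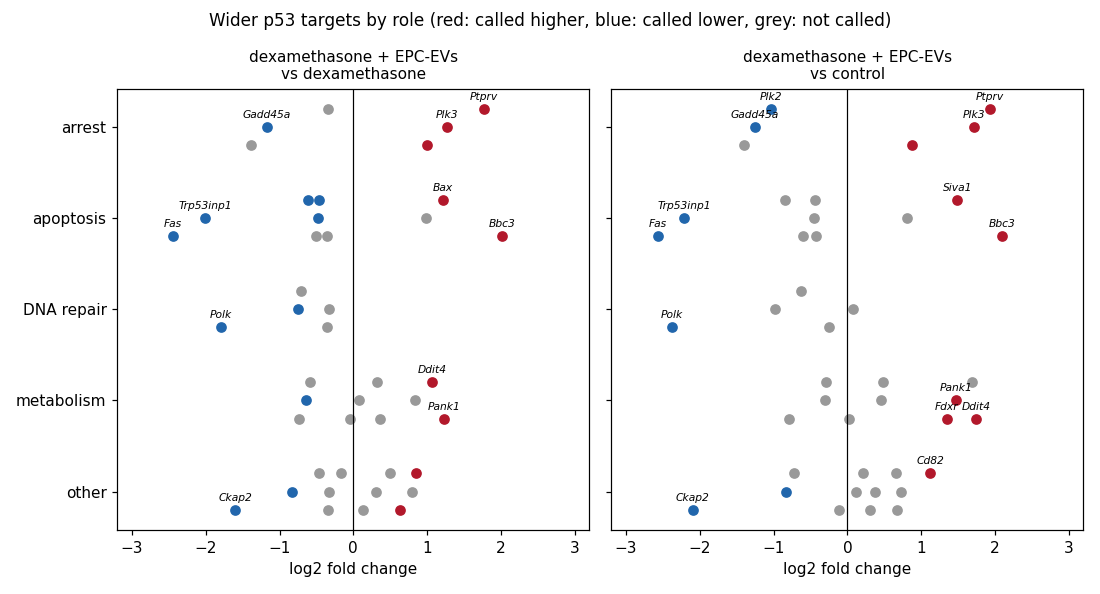
Log2 fold change (x axis) of 43 further p53 targets by role (y axis, offset within a role only so that points can be seen) between dexamethasone + EPC-EVs and dexamethasone (left) and between dexamethasone + EPC-EVs and control (right). Red points were called higher, blue lower and grey not called, and called genes beyond 1 are named. Called points stand on both sides of 0 in each panel, 9 red and 11 blue on the left and 9 red and 7 blue on the right.

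Of 17 regulators of p53 in the table, 16 were tested. From dexamethasone to dexamethasone + EPC-EVs, 6 fell and 1 rose, which is 43.8% called beside 39.8% of all genes. Mdm4, the partner of MDM2 that masks the p53 activation domain, went from 333.1 and 444.6 CPM to 199.8 and 203.1 CPM, a log2 fold change of -0.99 (SE 0.15, edgeR adjusted p = 0.000333). This fall was called in all 14 alternatives, with values from -1.17 to -0.55. The damage kinases Atr (2.01-fold) and Chek2 (log2 fold change -0.88) and the p53 relative Trp63 (-1.42) fell, and each call was lost without dexamethasone replicate 1 (edgeR adjusted p = 0.0523, 0.0572 and 0.101) and without dexamethasone replicate 2 (edgeR adjusted p = 0.0597, 0.148 and 0.117). The call of Chek2 was also lost without dexamethasone + EPC-EVs replicate 2 (edgeR adjusted p = 0.129). With the GC and length trend removed, Atr was at -0.33 (edgeR adjusted p = 0.314) and Trp63 at -1.11 (edgeR adjusted p = 0.125). Trp63 stood at -2.44 without dexamethasone + EPC-EVs replicate 1 and at -0.81 without dexamethasone + EPC-EVs replicate 2. Cop1, a ubiquitin ligase that also acts on p53, fell by 0.46 on the log2 scale, and this turned to 0.57 with the GC and length trend removed (edgeR adjusted p = 0.00789). Its fall was also not called without dexamethasone replicate 1, dexamethasone replicate 2 or dexamethasone + EPC-EVs replicate 1 (edgeR adjusted p = 0.112, 0.161 and 0.104). Kat5, an acetyltransferase, rose (0.75), and lost its call without dexamethasone replicate 1 (edgeR adjusted p = 0.133) or dexamethasone + EPC-EVs replicate 1 (edgeR adjusted p = 0.0824), and with the GC and length trend removed (0.24, edgeR adjusted p = 0.434).

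The 12 genes of the G2 and M phases that p53 is known to repress through p21 were read beside Cdkn1a. Cdk1 (1.31) and Cdc20 (0.78) rose, Mki67 (-1.19) and Top2a (-1.05) fell, and 8 were not called between dexamethasone + EPC-EVs and dexamethasone, which is 33.3% called beside 39.8% of all genes. The median of the 12 was 0.11. All 12 had more CPM in dexamethasone + EPC-EVs replicate 1 than in replicate 2. The gap was wide for Plk1 (57.1 and 29.83 CPM), Ccnb1 (34.53 and 17.66 CPM) and Mki67 (558.6 and 282.1 CPM), and slight for Cdc25c (9.187 and 9.106 CPM). Cdk1, the mitotic kinase, had 16.74 and 27.09 CPM and then 63.68 and 48.67 CPM, and its rise was called in all 14 alternatives. Cdc20 was not called with any 1 of dexamethasone replicate 1, dexamethasone replicate 2 or dexamethasone + EPC-EVs replicate 1 left out (edgeR adjusted p = 0.149, 0.0977 and 0.246), and it was at 0.46 without the last of these. Mki67 and Top2a were not called without dexamethasone replicate 2 (edgeR adjusted p = 0.068 and 0.0639), and Mki67 was at -0.76 without dexamethasone + EPC-EVs replicate 2. With the GC and length trend removed, Cdc20 was at 0.20 (edgeR adjusted p = 0.575) and Mki67 at -0.95 (edgeR adjusted p = 0.127).

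The genes with the most similar pattern were sought by the root mean square difference of centred log2 CPM over the 6 libraries, among the 9223 genes whose mean reached 10 CPM. Nearest to Mdm2 were Cenpe (0.05), Bdp1 (0.11) and Prpf38b (0.11). Cenpe had 262.2 and 391.7 CPM in control, 184 and 211.4 CPM in dexamethasone, and 78.25 and 70.73 CPM in dexamethasone + EPC-EVs. Nearest to Cdkn1a were Tpx2 (0.06), Epb41l2 (0.07) and Gas2l3 (0.08), and nearest to Trp53 were Zdhhc24 (0.07), Usp38 (0.08) and Tstd2 (0.08). Likeness over 6 libraries describes the values only.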

How the data were processed

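Per the labels and the study's methods, RNA was sequenced in paired ends. The authors removed adapter, poly-N and low-quality reads, aligned with HISAT2 under a stranded option and counted reads on genes with HTSeq 0.6.1. Whether HTSeq used strand is not given in the sources used here. The deposited gene counts are not normalized. The deposited FPKM beside them equals count divided by length and library total. Transcript FPKM values were deposited for chromosome 1, from StringTie. Series text naming fibroblasts and 48 hours was not followed, since the sample labels give osteoblasts and 72 hours.

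Counts of the 4 libraries compared were fitted with edgeR 4.0.16 (R 4.3.3, TMM, filterByExpr, robust quasi-likelihood test), with Benjamini-Hochberg adjustment over all genes tested and a threshold of 0.05. SE is the log2 fold change over the root of F. Transcripts with a mean of at least 1 FPKM were tested with limma 3.58.1 on log2(FPKM + 1). The scripts were tested on simulated data. Alternatives were DESeq2 1.42.0, other scalings, filters and fits, mitochondrially encoded genes left out, and, chosen after seeing the data, library totals alone and a loess trend (span 0.4) on GC content and length removed. The members and lists were chosen with earlier results of these data known. The genes named are the members and, in each list and comparison, up to 5 called rises and 5 falls with a mean of at least 5 CPM. Lists of p53 targets, p53 regulators, G2/M genes, ATF4 and glucocorticoid receptor targets and cell type markers were used. Coordinates are those of GENCODE vM21, which holds 21646 of the 21686 genes, and promoters are from RefSeq. Intervals are those of the edgeR fit and include the spread between replicates, while limits of 3 counts cover counting error only. Where a library is left out, the spread comes from the other group's pair and is taken to hold for the single library that remains.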

Additional observations from a re-analysis of the deposited data

How the results depend on the processing

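Among the 9 genes, 5 of the 7 calls between dexamethasone + EPC-EVs and each other group (Mdm2, Cdkn1a, Ccng1, Eda2r and Sesn1) were made under all 14 other treatments of the counts, and Zmat3 and Phlda3 were not. For dexamethasone against control, where 0 were called, DESeq2 called 1 (Mdm2), no filter 2, the replicate block 1 (Mdm2, -0.80, edgeR adjusted p = 0.0288), and leaving out each library gave 0 to 3. Of the further targets there, DESeq2 called 1, no filter 1, and leaving out each library gave 0 to 13. At the study's threshold (log2 fold change beyond 1.5 at an unadjusted p under 0.05), 1 of the 9 genes and 6 further targets passed against dexamethasone, beside 14.2% of all genes, and 8 further targets against control, beside 20.7%. At an adjusted p under 0.05, leaving out each library gave 9 to 26 further targets against control, where 16 were called with all 4. Over all genes the calls moved too, from 1820 higher and 1555 lower without dexamethasone + EPC-EVs replicate 2 to 3581 and 2650 without control replicate 1. Over all genes in dexamethasone against control, 2 were higher and 5 lower. The numbers were larger by DESeq2 (44 and 87) and with no filter (119 and 129). They were smaller with mitochondrially encoded genes left out (0 and 1) and with limma on log2(FPKM + 1) (0 and 0).

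The same replicate numbers did not pair the samples, with correlations of deviations of 0.07, -0.000664 and 0.02. With the number as a block, the Phlda3 transcript was called against control (2.58, limma adjusted p = 0.00288), as it was without control replicate 1 (leaving out each library gave 1.80 to 3.35), and over all genes the block moved the calls for dexamethasone against control from 7 to 43. Beside this and the 1 call among the 9 genes, it moved no count of calls given here by over 1.5 times. It ended the calls of Mki67 against dexamethasone (edgeR adjusted p = 0.0732) and of Fdxr and Trp53bp1 against control (edgeR adjusted p = 0.0773 and 0.0566).

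The sign turned for some differences that were not called. For dexamethasone against control, Trp53 was at 0.0021 with the block, 0.0794 with limma on FPKM, 0.042 with library totals alone, and from -0.31 to 0.35 with each library left out. Eda2r was at 0.009, 0.0801 and 0.0478 under the first 3 of these, 0.19 with the GC and length trend removed, and from -0.37 to 0.43 with each library left out. Removing that trend also gave 0.0151 for Ccng1 in that comparison, -0.32 for Trp53 and -0.11 for Gdf15 against dexamethasone, and -0.57 for Trp53 against control. Against control, Trp53 was at -0.0087 with upper quartile scaling and from -0.22 to 0.46 with each library left out. Of called genes, that trend turned Cop1 (0.57) and Fdxr (-0.18, against control). The cause of these changes was not tested. Gdf15 had at most 31 counts in any library, and the parts of this depth and of the spread between replicates in its wide interval were not tested.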

Other observations

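Gene groups next to the p53 response were read from the same fits. Of 8 genes of the ATF4 stress response, which shares Gdf15 and other targets with p53, 6 rose and 1 fell from dexamethasone to dexamethasone + EPC-EVs, beside 20.9% of all genes higher and 18.9% lower. Their median was 1.26 on the log2 scale, and that of all genes 0.01. Against control, 2 rose (Atf4 and Psat1), 2 fell (Ddit3 and Atf3) and 4 were not called, beside 19.1% of all genes higher and 17.2% lower. Atf4, its transcription factor, went from 62.02 and 42.99 CPM to 191.6 and 258.3 CPM (log2 fold change 2.05, SE 0.20, edgeR adjusted p = 1.89e-05). Chac1 (2.55), Trib3 (2.32), Psat1 (1.70) and Ppp1r15a (0.82) also rose. The call of Ppp1r15a was lost without dexamethasone replicate 1, where its size hardly moved (0.73, edgeR adjusted p = 0.0656), and with the GC and length trend removed (0.25, edgeR adjusted p = 0.386). Ddit3, which encodes the stress factor CHOP, fell by 0.99 on the log2 scale. Atf3 had the lowest value of the 8, -2.13 against dexamethasone, where it was not called, and -3.41 against control. Its counts were low, 32 and 12 in dexamethasone and 10 and 9 in dexamethasone + EPC-EVs. Between dexamethasone and control, none of the 8 was called by edgeR or had an unadjusted p under 0.05.

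Of 6 glucocorticoid receptor targets tested, none was called by edgeR between dexamethasone and control, and 1 had an unadjusted p under 0.05 (Dusp1, -0.44). From dexamethasone to dexamethasone + EPC-EVs, 4 were higher, Tsc22d3 (2.40), Dusp1 (2.21), Sgk1 (0.75) and Fkbp5 (0.73), beside 20.9% of all genes. The call of Sgk1 was lost without either dexamethasone library (edgeR adjusted p = 0.0532 and 0.0637), and that of Fkbp5 without dexamethasone replicate 2 (edgeR adjusted p = 0.153) or dexamethasone + EPC-EVs replicate 1 (edgeR adjusted p = 0.0836) and with the GC and length trend removed (0.47, edgeR adjusted p = 0.127).

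The summed markers were 14970 to 16630 CPM in control, 16020 to 16390 CPM in dexamethasone and 20860 to 26760 CPM in dexamethasone + EPC-EVs for osteoblasts. The members of this sum moved in opposite directions, since from dexamethasone Col1a1 (1.51) and Col1a2 (1.89) rose and Spp1 fell (-1.06), from a mean of 10630 to 5254 CPM. These 3 calls were made under all 14 alternatives, with Col1a1 from 0.70 to 1.69 and Spp1 from -1.31 to -0.49. The sums were 379 to 416.3, 361.3 to 372.8 and 242.1 to 290.3 CPM for endothelial and progenitor cells, of which Cd34 alone made 239 to 410.9 CPM, and 1.648 to 4.804 CPM over all libraries for haematopoietic cells. Their part in the differences of the p53 targets was not tested.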
